A study of Danio rerio with 12 samples.

Results

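npas4a and npas4b are the zebrafish paralogs of Npas4, a transcription factor of the bHLH-PAS family. They are 2 of the 18340 genes that the arrays measured, and 3 probe sets stand for them. The platform annotation assigns probe set 13015447 to npas4a, on chromosome 14 of the RefSeq annotation of the GRCz12tu assembly, and probe set 13116158 to npas4b, on chromosome 21. A further probe set of npas4b, 13110394, is named so in the study's own gene tables and not in that annotation. It is called the study-table probe set here, and 13116158 the annotated one. The genes were chosen by their measured levels, since both had already been seen to be higher in fish that attended to other fish. Their differences between attentive and other fish are therefore given as a description, with no test.

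Npas4 is an immediate early gene of neurons. In rodents it is induced when a neuron is depolarized and calcium enters through L-type channels, and it responds little to the growth factors and second messengers that induce fos. Its protein binds DNA as a dimer with Arnt2 or a related partner, and it drives genes, Bdnf among them, that shape the inhibitory synapses of the active neuron. Zebrafish also have npas4l, a relative known for the origin of blood vessels and blood cells, to which no probe set was assigned here.

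Whole-brain RNA of 12 adult wild-type (AB) males, 11 months old, was measured on Affymetrix zebrafish gene arrays, 1 fish per array and 3 fish in each of 4 groups. Every fish had spent the night before alone in its test tank and was then tested for 30 min. BIC fish watched a fighting pair of males and were attentive to it, BANIC fish were attentive to a pair that did not interact, BINIC fish were shown such a pair and were inattentive, and ISOL fish were isolated. The bystanders saw the other fish through a one-way mirror, so the cue was only visual. The fish were picked for their behavioral profile from a larger set, so attention was a criterion of choice and not an assigned treatment. In RNA of a whole brain, a higher level in each cell and more cells with the transcript cannot be told apart. Neuron markers averaged between 9.02 and 9.16 (log2) on the 12 arrays, over the 10 of 12 listed markers that were measured.

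npas4a was low in isolated and in inattentive fish and high in both attentive groups. Its log2 values were 6.98, 6.98 and 7.46 in ISOL fish. They were 7.50, 7.80 and 7.39 in BINIC fish. Attentive fish lay above all of these, whichever pair they had watched. The values were 8.83, 8.56 and 9.47 in BANIC fish. In BIC fish they were 9.34, 9.63 and 9.19. The lowest attentive fish, at 8.56, stood 0.76 above the highest other fish, at 7.80. Of the 9170 genes tested, 0.349% had all attentive fish above all other fish.

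The group means of npas4a were 7.14 ± 0.27 in ISOL, 7.56 ± 0.21 in BINIC, 8.96 ± 0.47 in BANIC and 9.38 ± 0.22 in BIC (SD, n = 3). In this order the neighbors ISOL and BINIC overlapped, as did BANIC and BIC, and the break lay between BINIC and BANIC. The mean in BIC was 2.24 above that in ISOL on the log2 scale (SE 0.17), a 4.73-fold difference and the second largest increase among the 9170 genes tested. The mean in BANIC was 1.81 above ISOL (SE 0.22, 3.51-fold), which was 80.9% of the difference seen in BIC. Against inattentive fish, the npas4a mean was 1.82 higher in BIC (SE 0.15), the largest increase among the genes tested, and 1.39 higher in BANIC (SE 0.21). Over the 12 arrays the SD of npas4a ranked 29 among the 18340 genes.

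**Figure D1:**
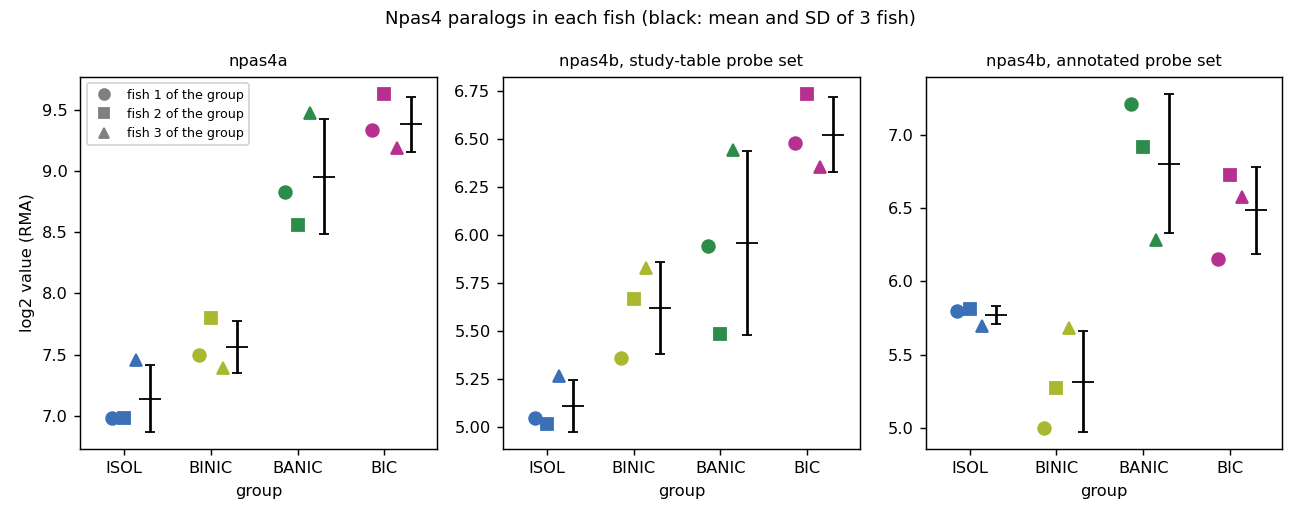
Log2 value of npas4a and of each npas4b probe set in every fish, by group, with the mean and SD of the 3 fish in black; each panel has its own axis. The 6 attentive fish (BANIC and BIC) lie above the 6 others for npas4a and for the annotated npas4b probe set, and overlap with them for the study-table probe set, where the lowest attentive fish is at 5.49 and the highest other at 5.83.

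The study-table probe set of npas4b was lowest in isolated fish, higher in inattentive fish and highest in BIC fish. Its log2 values were 5.05, 5.02 and 5.27 in ISOL and 5.36, 5.67 and 5.83 in BINIC. They were 5.94, 5.49 and 6.44 in BANIC and 6.48, 6.74 and 6.35 in BIC. All BIC fish were above all ISOL fish, all BANIC fish were above all ISOL fish, and BANIC fish overlapped with both BINIC and BIC. All BIC fish stood above all ISOL fish in 5.21% of the genes tested, and all BANIC fish did so in 5.51%.

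The means of this probe set were 5.11 ± 0.14 in ISOL, 5.62 ± 0.24 in BINIC, 5.96 ± 0.48 in BANIC and 6.52 ± 0.19 in BIC (SD, n = 3). Against ISOL, it was 1.41 higher in BIC (SE 0.14, 2.66-fold) and 0.85 higher in BANIC (SE 0.21, 1.80-fold), so that BANIC reached 59.9% of the BIC difference. Against BINIC, it was 0.90 higher in BIC (SE 0.15) and 0.34 higher in BANIC (SE 0.22). The last of these was the smallest of the attentive-fish differences, and its groups overlapped. It was 0.57 without the second BANIC fish, 0.21 without the first BINIC fish and 0.095 without the third BANIC fish.

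The annotated probe set of npas4b ordered the groups in another way. Its log2 values were 5.80, 5.81 and 5.70 in ISOL and 4.997, 5.27 and 5.68 in BINIC. They were 7.21, 6.92 and 6.28 in BANIC and 6.15, 6.72 and 6.58 in BIC. Attentive fish were again above all others, with a narrower gap of 0.34 between the highest ISOL fish, at 5.81, and the lowest BIC fish, at 6.15. Here BANIC, not BIC, had the highest mean, and BINIC, not ISOL, the lowest.

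Its means were 5.32 ± 0.34 in BINIC, 5.77 ± 0.06 in ISOL, 6.48 ± 0.30 in BIC and 6.80 ± 0.48 in BANIC (SD, n = 3). BIC and BANIC overlapped, and BINIC and ISOL were parted by only 0.02. The probe set was 0.71 higher in BIC than in ISOL (SE 0.16, 1.64-fold) and 1.03 higher in BANIC than in ISOL (SE 0.20, 2.05-fold). The difference in BANIC was 145% of that in BIC. Against BINIC, it was 1.17 higher in BIC (SE 0.19) and 1.49 higher in BANIC (SE 0.23). The SDs over the 12 arrays ranked 84 for the annotated and 105 for the study-table probe set among the genes.

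The comparisons by which the genes were not chosen were tested. A gene was called differentially expressed at a Benjamini-Hochberg FDR under 0.05 and a log2 difference of at least 1. These comparisons share groups with those by which the genes were chosen, so their intervals and P values are not free of that choice. In particular, the study had named npas4b for BIC and not for BANIC. Between the attentive groups, neither paralog was called. npas4a was 0.43 higher in BIC than in BANIC (SE 0.21, 95% interval -0.05 to 0.91, adjusted p = 0.9995 from limma). The BANIC fish at 9.47 was above 2 of the 3 BIC fish. The study-table probe set of npas4b was 0.57 higher in BIC (SE 0.21, 95% interval 0.09 to 1.04, adjusted p = 0.9995 from limma), at an unadjusted P of 0.0242. The annotated probe set differed by -0.32, lower in BIC (SE 0.23, 95% interval -0.83 to 0.19, adjusted p = 0.9995 from limma). The fish of BIC and BANIC overlapped for all 3 probe sets, and single fish moved these differences. Without the second BANIC fish the npas4a difference was 0.23 and that of the study-table probe set 0.33. Without the third BANIC fish it was 0.69 for npas4a and -0.58 for the annotated probe set. The annotated probe set differed by -0.12 without the first BANIC fish and by -0.15 without the first BIC fish. In this comparison 2 genes were called, gusb and igflr1, or 0.0218%, and at an unadjusted P under 0.05 the shares were 1.58% higher and 2.01% lower in BIC.

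Between the groups that were not attentive, the paralogs were not called either, and the npas4b probe sets went opposite ways. npas4a was 0.42 higher in BINIC than in ISOL (SE 0.17, 95% interval 0.06 to 0.78, adjusted p = 0.545 from limma), and the ISOL fish at 7.46 was above the BINIC fish at 7.39. The study-table probe set of npas4b was 0.51 higher in BINIC (SE 0.15, 95% interval 0.18 to 0.84, adjusted p = 0.386 from limma), with all BINIC fish above all ISOL fish. The annotated probe set differed by -0.45, lower in BINIC (SE 0.17, 95% interval -0.82 to -0.09, adjusted p = 0.520 from limma), with all BINIC fish below all ISOL fish, and by -0.29 without the first BINIC fish. All BINIC fish were above all ISOL fish in 8.6% of genes and below them in 7.14%. Each of the 3 probe sets had an unadjusted P under 0.05 from limma. Of all genes tested, 5.16% reached that level and were higher in BINIC, and 3.6% reached it and were lower. The genes called here were 3, pcdh2ab7, pcdhga10 and LOC100331149, or 0.0327% of those tested.

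**Figure D2:**
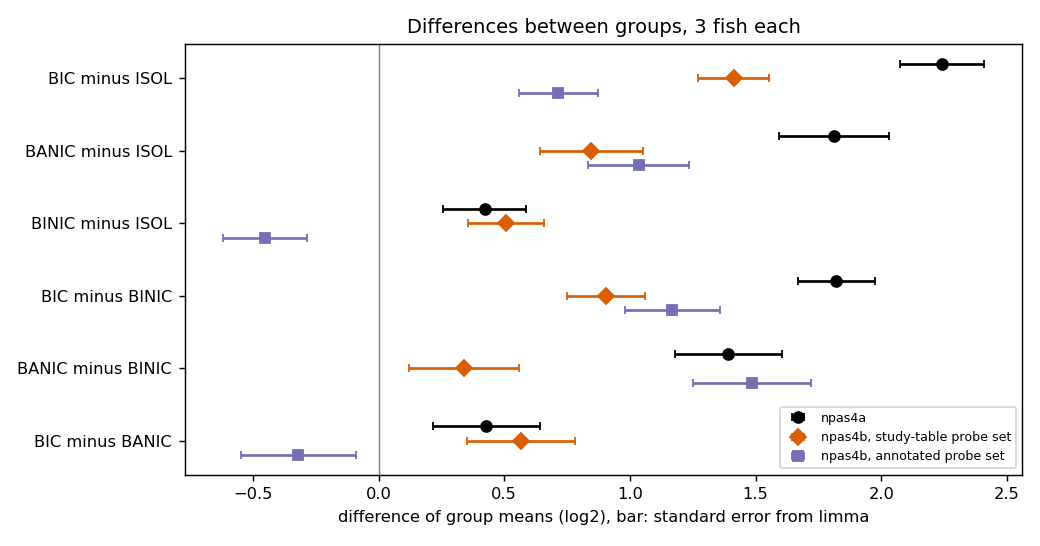
Differences of group means (log2, horizontal axis) for 6 comparisons of 3 fish against 3, for npas4a and both npas4b probe sets; bars are standard errors from limma. npas4a has the largest difference in the first comparison, 2.24, and the annotated npas4b probe set lies below 0 for BINIC minus ISOL (-0.45) and BIC minus BANIC (-0.32), where the other probe sets lie above 0.

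The npas4b probe sets were then compared with each other within each fish, which is a difference of log2 values and not of transcript levels. The study-table value minus the annotated value was -0.75, -0.80 and -0.43 in ISOL. It was 0.36, 0.39 and 0.15 in BINIC. All ISOL fish were thus below 0 and all BINIC fish above it. The point 0 is only a reference, since these are not transcript levels. How many other genes part these groups by such a difference was not counted. Among the genes tested by a single value, all BINIC fish were above all ISOL fish in 8.6% and below them in 7.14%. In BANIC the study-table minus annotated value was -1.27, -1.43 and 0.16, and in BIC 0.33, 0.01 and -0.22. BANIC held both the lowest fish of all and a fish inside the BINIC range, so the third BANIC fish differed from the other BANIC fish in how the probe sets stood to each other.

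This quantity was fitted for the 870 genes with 2 or more probe sets, as the second highest in mean minus the highest, a test chosen after these values were seen. It shifted by 0.96 between BINIC and ISOL (SE 0.14, 95% interval 0.64 to 1.28, adjusted p = 0.0727 from limma), the third largest shift of the 870 genes. Between BIC and BANIC it shifted by 0.89 (SE 0.41, 95% interval -0.08 to 1.85, adjusted p = 0.976 from limma). Neither shift passed an FDR of 0.05, and 0 of 870 genes (0%) did in either comparison. At an unadjusted P under 0.05 by limma there were 82 such genes between BINIC and ISOL and 42 between BIC and BANIC. The shift between BINIC and ISOL stayed between 0.89 and 1.08 when any 1 of the 6 fish was left out. That between BIC and BANIC ran from 0.59 without the second BANIC fish to 1.39 without the third. Which transcripts each npas4b probe set binds was not tested.

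**Figure D3:**
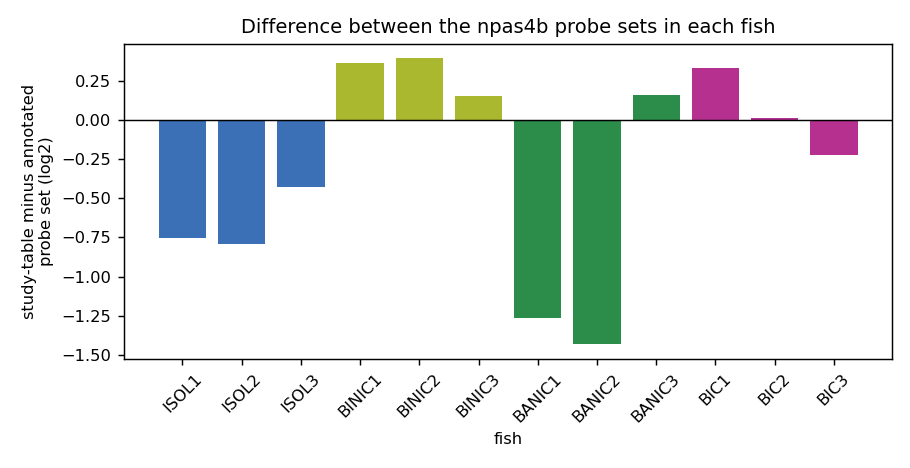
Study-table minus annotated probe set of npas4b (log2, vertical axis) in each of the 12 fish, colored by group. The ISOL bars run from -0.80 to -0.43, the BINIC bars from 0.15 to 0.39, and BANIC holds bars at -1.43 and at 0.16.

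The fish within a group also showed how closely the paralogs went together. Among BANIC fish, the third was the highest for npas4a (9.47) and for the study-table probe set of npas4b (6.44), but the lowest for the annotated one (6.28). The third ISOL fish was likewise the highest for npas4a (7.46) and for the study-table probe set (5.27) and the lowest for the annotated one (5.70). Among BINIC fish the third was the lowest for npas4a (7.39) and the highest for both npas4b probe sets. Among BIC fish the second was the highest for all 3.

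Likeness of pattern was measured as the mean Manhattan distance between genes scaled over the 12 arrays, where a smaller distance is a closer likeness. The study-table probe set of npas4b lay 0.24 from npas4a and ranked 5 among the 9169 genes compared. The annotated probe set lay 0.69 from npas4a and ranked 244. After each group's mean was removed, so that only differences among fish of the same group counted, the study-table probe set ranked 18 (distance 0.36). The annotated one then ranked 7989 (distance 1.17), among the genes least like npas4a. The npas4b probe sets lay 0.87 from each other. All points share the same 12 arrays, and these distances are descriptions with no test.

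**Figure D4:**
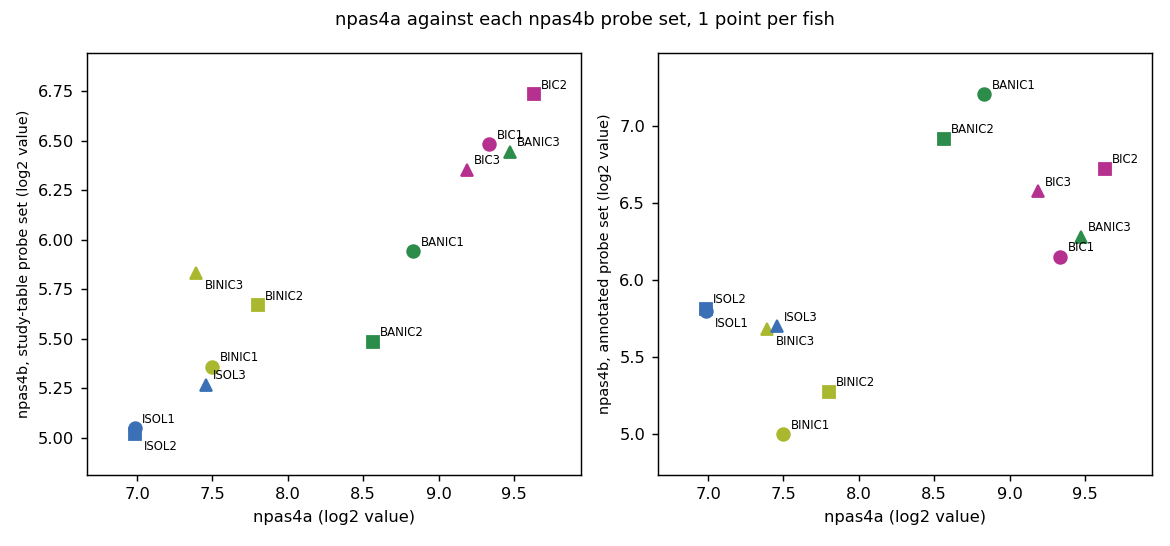
npas4a (log2, horizontal axis) against the study-table probe set of npas4b (left) and against the annotated one (right), 1 point per fish, colored by group. On the left the fish run from ISOL at the lower left to the second BIC fish (9.63 and 6.74) at the upper right; on the right BANIC fish at 7.21 and 6.92 lie above the BIC fish although their npas4a values are lower.

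Apart from npas4b, the 8 genes nearest to npas4a were egr4 (distance 0.18), zgc:122979 (0.21), fosab (0.21), egr2a (0.23), dusp1 (0.25), pim1 (0.28), sik1 (0.28) and btg2 (0.28). The study names the probe set of zgc:122979 as DNAJB5, a DnaJ homolog. egr4, egr2a and fosab encode transcription factors of the immediate early class, dusp1 a phosphatase that switches off MAP kinases, pim1 and sik1 kinases, and btg2 an antiproliferative protein. The mean log2 value of egr4 was 6.10 in ISOL, 6.33 in BINIC, 7.25 in BANIC and 7.66 in BIC, and that of fosab was 6.86, 7.15, 8.43 and 8.82. Both show the same order of groups as npas4a, which is in part a result of choosing them by likeness over the same arrays. For dusp1 the means of 5.62, 5.83, 6.63 and 6.59 placed BANIC slightly above BIC.

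Nearest to the study-table probe set of npas4b were rergla (0.19), npas4a itself (0.24), gpr3 (0.30) and egr4 (0.31). gpr3 encodes an orphan receptor that raises cAMP, and its means of 6.88 in ISOL, 7.46 in BINIC, 7.80 in BANIC and 8.13 in BIC had the same order of groups as the probe set. The annotated probe set had only more distant neighbors, slc48a1a (0.39), pdzk1ip1 (0.40), LOC100334847 (0.44) and anxa14 (0.44). slc48a1a encodes a heme transporter, and its means of 8.72 in ISOL, 8.48 in BINIC, 8.92 in BANIC and 8.87 in BIC were lowest in BINIC and highest in BANIC. None of the 4 nearest genes of one npas4b probe set was among those of the other. These genes too were chosen by likeness, so shared orders of groups are in part a result of that choice.

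The partners with which Npas4 binds DNA showed no increase in the attentive groups like that of the paralogs. All 5 listed partners were measured, but only 2 were tested. Neither of these was called in the 4 comparisons made, each bystander group against ISOL and BIC against BANIC. Past the SD filter, 0 had an unadjusted P under 0.05 from limma. Without that filter, 1 of the 5, bmal1b, was lower than in ISOL at that P in BIC, and the same gene in BANIC. The share of all genes at that P without the filter was not counted. arnt2, the main partner in neurons, had mean log2 values of 9.34 in ISOL, 9.34 in BINIC, 9.32 in BANIC and 9.35 in BIC. arnt had means of 6.94, 6.91, 6.96 and 6.92, and bmal2 of 4.63, 4.48, 4.58 and 4.51. Only the clock genes bmal1a and bmal1b varied enough to be tested. bmal1a differed from ISOL by -0.41 in BIC (SE 0.21, adjusted p = 0.882 from limma) and by -0.39 in BANIC (SE 0.23, adjusted p = 0.848 from limma). bmal1b differed from ISOL by -0.29 in BIC (SE 0.13, adjusted p = 0.882 from limma) and by -0.30 in BANIC (SE 0.14, adjusted p = 0.832 from limma). Inattentive fish showed the same direction, with bmal1a at -0.27 (SE 0.22) and bmal1b at -0.31 (SE 0.18) in BINIC against ISOL. All of these differences share the same ISOL fish, so their common direction is not separate evidence. Without the second ISOL fish, bmal1a differed from ISOL by -0.13 in BIC and -0.11 in BANIC. Without the third ISOL fish, it differed by -0.60 and -0.58. The bmal1b difference ran from -0.38 to -0.22 in BIC and from -0.40 to -0.24 in BANIC with any 1 array left out. The wider bHLH-PAS family also holds factors that respond to oxygen or dioxin and factors of the clock. Of its 23 listed genes, 17 were measured and 11 tested. Of these 11, 0 reached an unadjusted P under 0.05 from limma in any of the 4 comparisons. Among all genes tested, the share at that P in a single direction ran from 1.58% to 5.16%, so 0 of 11 says little. Without the SD filter, 2 of the 17 were lower in BINIC than in ISOL at that P, and 0 in the other comparisons. With 1 array left out, the count of tested genes ran from 0 to 2 in BIC and from 0 to 1 in BINIC against ISOL.

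The path from calcium entry to the nucleus, which lies upstream of Npas4 in rodents, was covered by 34 of 53 listed genes. These 34 include borcs8, which is not known as part of this path and was not among those tested. Only 5 of the 34 varied enough to be tested, and 0 were called. At an unadjusted P under 0.05, mrtfbb, a cofactor of serum response factor, was 0.31 higher in BANIC than in ISOL (adjusted p = 0.830 from limma). mef2ca, of the MEF2 factors that act on the Npas4 gene in rodents, differed by -0.36 in BINIC from ISOL (adjusted p = 0.470 from limma). crtc2, a CREB coactivator, differed by -0.38 there (adjusted p = 0.520 from limma). No tested gene of this list reached that level in BIC against ISOL. Among all genes tested, 3.02% reached it and were higher in BANIC than in ISOL, and 2.96% reached it and were lower. In BINIC against ISOL these shares were 5.16% and 3.6%. With 1 array left out, the number of list genes at that level ran from 0 to 1 in BANIC and from 1 to 3 in BINIC.

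A list of 15 genes that Npas4 regulates in rodents was examined, which holds paralogs of the same rodent gene and is only a part of such genes. The list states no direction of regulation, so higher and lower counts are not set against an expected one. All were measured, 15 of 15, and 8 varied enough to be tested. None was called in BIC, BANIC or BINIC against ISOL, or between the attentive groups. Of all genes tested, 7 (0.0763%) were called in BIC and 12 (0.131%) in BANIC against ISOL. By limma, 2 of the 8 had an unadjusted P under 0.05 and were higher in BIC than in ISOL, and 0 were lower, where 2.63% of all genes tested were higher and 3.05% lower. In BANIC, 3 of the 8 were higher and 1 was lower than in ISOL, where the shares were 3.02% and 2.96%. In BINIC, 0 were higher and 1 was lower, where the shares were 5.16% and 3.6%. The median log2 difference of the 8 genes was 0.21 in BIC, 0.27 in BANIC and 0.13 in BINIC, and that of all genes tested was -0.01, 0.00 and 0.01. Over all 15 genes the medians were 0.02, 0.06 and 0.05. Without the SD filter, 2 of the 15 were higher and 0 lower at that P in BIC. In BANIC 3 were higher and 2 lower, and in BINIC 0 were higher and 1 lower. The shares of all genes without the filter were not counted. The list was chosen with earlier results of these data known, and the SD filter used all 12 arrays. These counts are therefore a description of the list.

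plk2b, a polo-like kinase that acts in the scaling of synapses, had mean log2 values of 7.25 in ISOL, 7.49 in BINIC, 7.74 in BANIC and 7.88 in BIC. It was 0.63 above ISOL in BIC (SE 0.14, adjusted p = 0.387 from limma) and 0.49 above ISOL in BANIC (SE 0.16, adjusted p = 0.626 from limma). csrnp1b, a nuclear protein, was 0.65 above ISOL in BIC (SE 0.18, adjusted p = 0.635 from limma) and 0.44 in BANIC (SE 0.18, adjusted p = 0.811 from limma). Both had the group order of npas4a, with smaller differences than its own in both attentive groups. With 1 array left out, csrnp1b was 0.46 to 0.86 above ISOL in BIC and 0.25 to 0.65 in BANIC. plk2b and csrnp1b were named for their small P against ISOL, so their differences from ISOL are in part a result of that choice. Of their listed paralogs, csrnp1a was 0.40 above ISOL in BIC and 0.39 in BANIC. plk2a went the other way, by -0.15 in BIC and -0.12 in BANIC, and did not vary enough to be tested. bdnf, the neurotrophin through which Npas4 acts on inhibitory synapses in rodents, was 0.34 higher in BANIC than in ISOL (SE 0.13, adjusted p = 0.731 from limma) and 0.13 higher in BIC (SE 0.13). rgs2, which dampens G-protein signaling, differed from ISOL by -0.41 in BANIC (SE 0.12, adjusted p = 0.532 from limma). nptx2a, a pentraxin of excitatory synapses, differed from ISOL by -0.31 in BINIC (SE 0.12, adjusted p = 0.552 from limma).

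**Figure D5:**
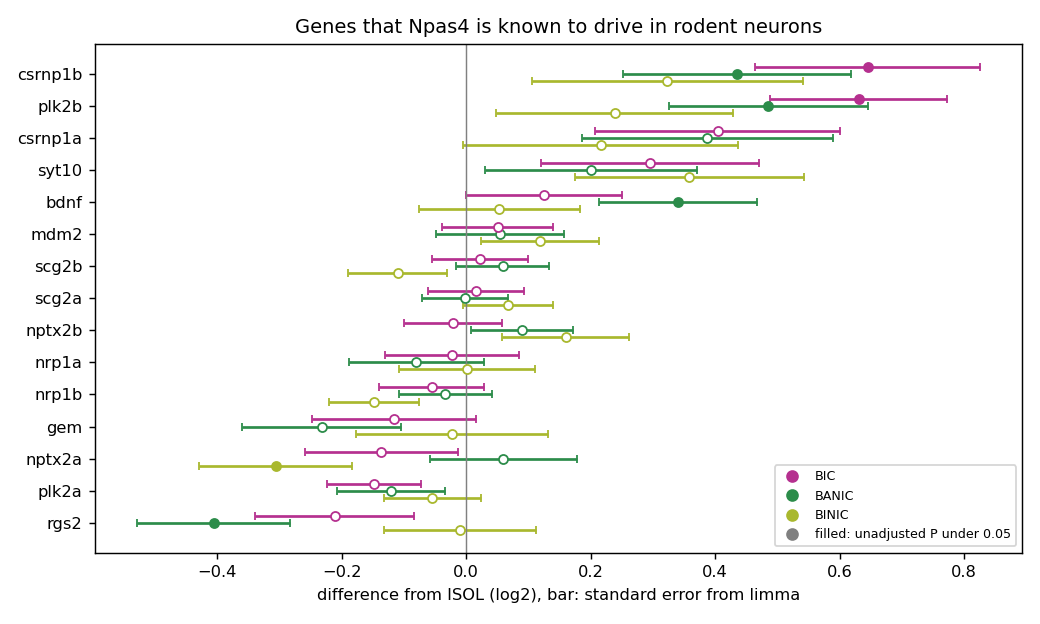
Difference from ISOL (log2, horizontal axis) of the 15 listed genes that Npas4 regulates in rodents, for BIC, BANIC and BINIC (3 fish each). The list states no direction of regulation. Bars are standard errors from limma and filled points have an unadjusted P under 0.05. csrnp1b and plk2b have the largest differences in BIC, 0.65 and 0.63, and rgs2 has the lowest in BANIC, -0.41.

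Markers of tissues that a dissected brain can carry with it varied between fish, and none was called in the 4 comparisons. The 10 measured photoreceptor markers averaged 3.51 to 3.64 (log2) in BIC fish, 3.55 to 4.34 in BANIC, 3.57 to 4.53 in BINIC and 3.63 to 4.55 in ISOL. By limma, 5 of the 10 were lower in BIC than in ISOL and 3 were lower in BANIC, each at an unadjusted P under 0.05, where 3.05% and 2.96% of all genes tested were lower. The 11 muscle markers averaged 4.14 to 5.71 in BANIC fish and 4.14 to 4.56 in the other fish, and the 4 red blood cell markers ranged from 6.01 to 7.98 over the 12 arrays. The part of these tissues in the npas4a and npas4b levels was not tested.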

How the data were processed

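The deposited values are log2 expression values that the authors obtained with the oligo package and RMA (background subtraction, quantile normalization, summary per probe set), 1 value per probe set and array. There are 23467 probe sets, from 0.93 to 12.5. Array medians lie between 5.54 and 5.59, and such values carry no counts, so that the 3 arrays per group limit the precision. The labels only number the replicates, and the study describes them as separate fish, 3 per group. Of 20871 annotated probe sets, 19283 have 1 symbol and 1 Entrez gene and 1588 have several symbols or no Entrez gene, and 3 more were named from the study's tables. RefSeq (GRCz12tu) holds 18243 of the 18340 Entrez genes. Its build is not that of the array, so no coordinates are given.

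The probe set of highest mean stood for a gene, and genes with an SD above the median of 0.127 were tested (9170), after the study's methods. limma 3.58.1 (R 4.3.3) was fitted on the 6 arrays of each comparison, with Benjamini-Hochberg adjustment over all genes tested. For the study-table probe set of npas4b the fit was repeated with it in place of the annotated one. Fits were tested on simulated data with known changes. Those changes were larger than the tested differences of the paralogs, so differences of that size were not checked. Intervals are at 95%.

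Members and gene lists were chosen with earlier results of these data known. The text names the paralogs, their dimer partners, list members that were called or were among the 4 of smallest unadjusted P under 0.05, and the 8 genes nearest to npas4a and 4 nearest to each npas4b probe set. It also names plk2a and csrnp1a, as paralogs of list members named by this rule. Alternatives were another fit over all groups, other filters, probe set choices, variance models and centring, a replicate block, and leaving out each array. Deviations of same-numbered fish of different groups were at most weakly correlated (-0.15 to 0.19 over 18 pairs, 1 of them over 0.1). With so few fish per group, such correlations cannot show whether the numbers pair the fish. Sequences, behavior, networks and motifs were not analysed here.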

Additional observations from a re-analysis of the deposited data

How the results depend on the processing

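The differences between groups of npas4a and of either npas4b probe set kept their direction when any 1 array was left out, though single fish moved some of them by over 1.5 times, as given above. None of the tested differences (BINIC against ISOL, BIC against BANIC) was called under any alternative, in a design where 3 fish per group leave wide intervals. The mean of all probe sets of a gene, which averages the npas4b probe sets, turned the direction of the annotated probe set in both. That mean was 0.028 higher in BINIC than in ISOL and 0.12 higher in BIC than in BANIC, where the annotated probe set alone was lower. It was 1.06 higher in BIC than in ISOL and 0.91 higher in BANIC than in BINIC, between the values of the separate probe sets.

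Counts of called genes moved more. In BIC against ISOL, 7 became 3 without the SD filter, 4 with the filter on dim genes, 12 with a replicate block, and 5 to 25 with 1 array left out (25 without the first ISOL fish, 19 without the first BIC fish and 12 without the third ISOL fish). In BANIC against ISOL, 12 became 6 in a fit of all 4 groups, 7 without the SD filter, 2 with the dim filter, and 6 (first ISOL fish) to 36 (second ISOL fish) with 1 array left out. In BINIC against ISOL, 3 became 0 in the fit of all groups and 0 with the dim filter, 7 with array weights, and 2 to 30 with 1 array left out (30 without the second ISOL fish, 8 without the third BINIC fish). Between BIC and BANIC, 2 became 0 in the fit of all groups, 1 without the SD filter, 1 with the dim filter, and 1 to 4 with 1 array left out (4 without the first BANIC fish, 1 without the second BANIC fish or the third BIC fish). The causes of these shifts were not tested. The replicate block changed no call of a paralog in these tests, with adjusted p = 0.731 from limma for npas4a in BINIC against ISOL.

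Among alternatives chosen after seeing the data, the rank of the study-table probe set by likeness to npas4a ran from 2 (without the third BINIC or the second BANIC fish) to 8 (without the third ISOL or the first BIC fish). That of the annotated probe set ran from 161 (without the first BANIC fish) to 448 (without the third ISOL fish). With 3 fish per group, intervals of about 1 on the log2 scale are the limit for differences between the attentive groups.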
